A study of Mus musculus with 24 samples.

Results

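The replication histone genes encode the histones that are made in bulk while DNA is copied. They were taken here as every line of the deposited count table whose symbol begins with Hist1h, Hist2h, Hist3h or Hist4h, which gave 68 of 24421 lines. By class these are 6 genes of the linker histone H1, 18 of H2A, 19 of H2B, 12 of H3 and 13 of H4. The Hist1 cluster on chromosome 13 holds 54 of them, the Hist2 cluster on chromosome 3 holds 10, the Hist3 cluster on chromosome 11 holds 3, and Hist4h4 lies alone on chromosome 6. The rule reads the symbols only, and it was set with earlier results of these data known. Transcripts were measured by bulk RNA-seq in blood stem and progenitor cells of male C57BL/6 mice of 12 weeks (young) or 107 weeks (aged), with no treatment named in the labels. All cells came from marrow enriched for CD117 (Kit) and were lineage-negative, Sca1-positive and Kit-positive. Long-term stem cells (LT-HSC) carried CD150 and lacked CD48, short-term stem cells (ST-HSC) lacked both, and multipotent progenitors (MPP) carried CD48 and lacked CD150. Each age and population has 4 libraries, 24 in all, and no label ties a library to a mouse or says whether cells of several mice were pooled, so p-values measure the spread between libraries.

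The core histones, H2A, H2B, H3 and H4, form the spool around which DNA is wound, and H1 binds the DNA between spools. Cells need new histones in S phase, when the genome is copied, and the replication genes are switched on at that time and off again after it. In their typical form these messages are unusual in that they have no introns and no poly(A) tail and end in a short stem-loop. The stem-loop binding protein SLBP holds this loop for processing, translation and decay. LT-HSC are known as mostly quiescent cells and MPP as cells that divide often.

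Stem-loops of 6 members are shown first, because a library made by poly(A) selection would miss messages that end in them. The libraries here were primed with not-so-random primers, per the labels' protocols, and no poly(A) selection is described. In each line the 16 bases of the stem-loop are in capitals and the 7 bases on either side in lower case, from the GENCODE vM21 transcripts of build GRCm38.
Hist1h2bj: atccaaaGGCTCTTTTCAGAGCCacgcaca
Hist1h1d: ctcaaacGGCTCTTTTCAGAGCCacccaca
Hist1h2ac: acccaaaGGCTCTTTTCAGAGCCcccactt
Hist1h3c: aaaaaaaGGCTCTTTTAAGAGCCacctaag
Hist4h4: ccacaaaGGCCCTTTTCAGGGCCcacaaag
Hist2h4: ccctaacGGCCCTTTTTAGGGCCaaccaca
The search pattern was GGNNCTTNTNANNGCC on the transcript strand. It matched the annotated transcripts of 44 of 68 members (64.7%) and of 183 of 55450 genes (0.330%). The form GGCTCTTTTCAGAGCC stood in 26 members, none of them of H4, and the form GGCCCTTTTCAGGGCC in 7, all of H4. The loop began 24 bases after the stop codon in Hist1h3c and 54 bases after it in Hist4h4. Not every annotated model ends near the loop. Those of Hist1h1d, Hist4h4, Hist1h2ac and Hist2h4 run on for 4931, 2515, 2058 and 1311 bases after the stop codon. Those of Hist1h3c and Hist1h2bj run on for 114 and 66. The models of Hist1h2bp, Hist1h2bq, Hist1h2br, Hist1h2be and Hist1h2bc have 2 or 3 exon blocks. A transcript model without a match only lacks these letters, and some models end at the stop codon.

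Many members are near copies of each other, which bears on what a count of one gene means. Coding sequences of the same length and class were between 77.7% and 100% identical in H2A (median 96.7%), 82.8% and 100% in H2B (96.8%), 93.6% and 100% in H3 (97.2%) and 85.4% and 100% in H4 (93.9%). Identical pairs were Hist1h2ao with Hist1h2ap, Hist2h2aa1 with Hist2h2aa2, Hist1h2bq with Hist1h2br, Hist2h3c1 with Hist2h3c2, and Hist1h4m with Hist1h4n. How the counting treated reads that fit several genes is not given in the sources used here. As a measure of it, each annotated transcript was cut into all its runs of 50 bases, and the share of runs also found in another member was taken. Of the 68 members, 42 passed the filter on low counts and were tested, 15 fell below it and 11 had no count in any library. The share of runs found elsewhere had a median of 41.6% in tested members, 54.1% in those below the filter and 89.2% in those with no count. The 11 with no count were Hist1h2bq, Hist1h2br, Hist1h2ao, Hist1h2ap, Hist1h4m, Hist2h3c1, Hist2h3c2, Hist2h2aa1 and Hist2h2aa2, which have close copies, and Hist1h2ba and Hist1h2aa, known as testis genes. A count of 0 allows up to 3 counts, or 0.228 to 0.400 CPM (counts set to an equal library size) by library, for counting error only, and it does not show that a gene with copies is silent. The 15 below the filter were Hist1h1t, Hist1h2ah, Hist2h2ab, Hist3h2ba, Hist3h2bb-ps, Hist1h3b, Hist1h3g, Hist1h3h, Hist1h3i, Hist2h3b, Hist1h4a, Hist1h4f, Hist1h4j, Hist1h4k and Hist1h4n, with means of 0.0562 CPM (Hist1h3h) to 0.614 CPM (Hist1h3b) over all libraries. The 42 tested members held 99% of the 129964 counts on members.

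**Figure D1:**
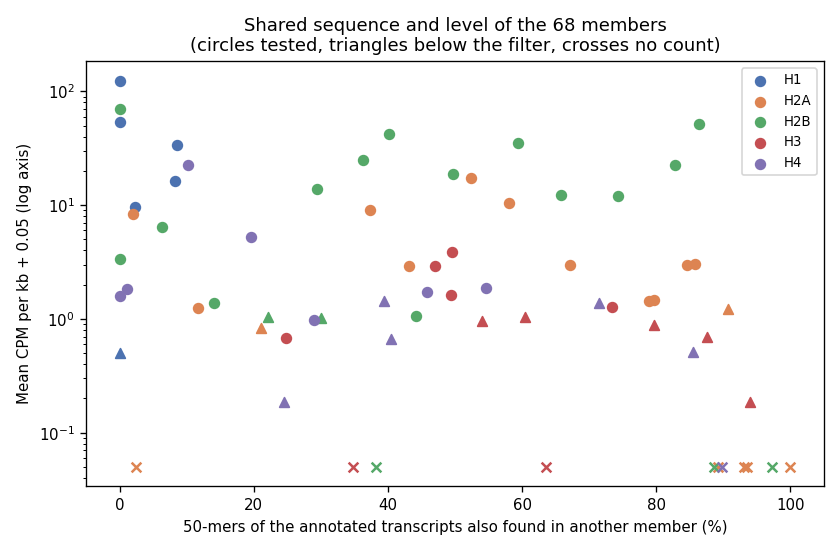
Mean level of each of the 68 members over all 24 libraries, as CPM per kilobase of annotated exon plus 0.05 on a log axis, against the percentage of its 50-base runs that also stand in another member. Circles are tested members, triangles members below the filter and crosses members with no count, which lie mostly at the right, with a median of 89.2% of shared runs.

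Each library held between 7307151 and 12946550 counts (median 8652940), and 45S ribosomal RNA took 5.64% to 10.9% of them. The 9 LT-HSC markers looked for summed to 4427 to 5077 CPM (with TMM factors) in young and 5479 to 5803 CPM in aged LT-HSC. They summed to 3479 to 4154 CPM in ST-HSC and 1502 to 2541 in MPP. The MPP markers Cd48, Flt3 and Cd34 summed to 150 to 267 CPM in young and 89.6 to 106.5 CPM in aged LT-HSC. In MPP they summed to 1293 to 1516 CPM. Neither sum overlapped between the ages in LT-HSC. With age in LT-HSC, 4 of the 9 LT-HSC markers rose and 0 fell (9.98% of all genes rose). All 3 MPP markers fell (8.87% of all genes fell). The part of this difference in the results on members was not tested. Some libraries stood apart. Of the 6 genes of neutrophil and monocyte precursors, none at 0 in all libraries, the sum was 919 CPM in young LT-HSC library 1 and 25.0 to 36.2 CPM in the other young LT-HSC. In aged ST-HSC it was 3205, 1173, 2237 and 166 CPM in libraries 1 to 4, against 85.5 to 102 CPM in young ST-HSC. Granulocyte markers were at 121, 1523, 284 and 7.63 CPM in aged ST-HSC libraries 1 to 4 and reached 228 CPM in young ST-HSC library 4, against 0.874 to 7.20 CPM in the other young ST-HSC. The 9 B and plasma cell markers summed to 364 CPM in aged ST-HSC library 4, and to 62.0 to 379 CPM in young and 1861 to 9364 CPM in aged MPP, where 4 of the 9 rose. In LT-HSC they stayed at 18.6 to 33.5 CPM. The 7 T and NK cell markers, 1 at 0 in all libraries, summed to 17.9 to 35.9 CPM in young and 69.3 to 119.9 CPM in aged LT-HSC, with 1 of the 2 tested higher and 1 lower. Precursor markers were at 718 to 5725 CPM in MPP. Libraries 2 and 3 of aged ST-HSC and library 1 of young LT-HSC, which stood apart in earlier results of these data, were left out together in an alternative fit. Other libraries that carry such markers stayed in it, among them aged ST-HSC libraries 1 and 4, young ST-HSC library 4 and all aged MPP. The part of these cells in the results on members was not tested.

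Summed over all members, replication histone transcripts were lowest in aged LT-HSC and highest in MPP of both ages. In CPM, the 68 members summed to 166, 183, 296 and 541 in young LT-HSC libraries 1 to 4 and to 175, 141, 83.8 and 181 in aged LT-HSC. Young LT-HSC library 4 stood far above the other 3, and aged LT-HSC libraries 1 and 4 lay within the range of the young. ST-HSC held 417, 187, 245 and 355 when young and 623, 658, 201 and 588 when aged, with aged library 3 low and the other 3 above every young library. MPP held 1156, 543, 1329 and 1007 and 1080.3, 1147, 1249.7 and 1068, with young library 2 low. As mean ± SD (n = 4), the sums were 297 ± 173 and 145 ± 44.5 CPM in young and aged LT-HSC, 301 ± 104 and 517 ± 213 in ST-HSC, and 1009 ± 337 and 1136 ± 83.2 in MPP. The aged sum was 0.490 times the young in LT-HSC, 1.72 times in ST-HSC and 1.13 times in MPP. Sums over members carry no test here, and in bulk samples fewer cells in S phase and less histone RNA per cell cannot be told apart.

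**Figure D2:**
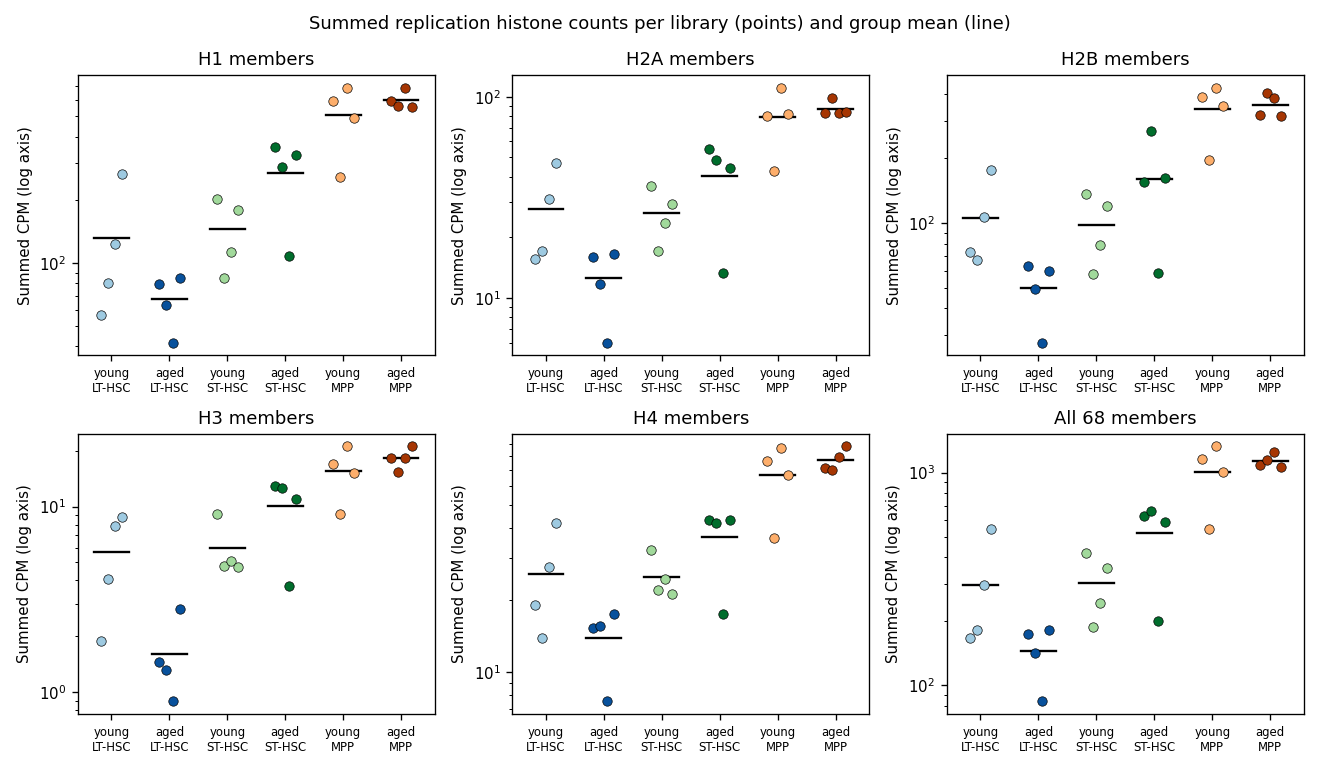
Summed CPM (log axis) of the members of each histone class and of all 68 members, one point per library and a line at the group mean, for young and aged LT-HSC, ST-HSC and MPP. For all members the aged LT-HSC mean is 145 CPM and the aged MPP mean 1136 CPM.

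Of the counts on members, H1 took 50.7%, H2B 32.4%, H2A 8.03%, H4 7.19% and H3 1.68%. The H2A share is uncertain, because H2A exons overlap genes on the opposite strand, as set out below. In LT-HSC each class had a lower mean in the aged than in the young. The aged class sum was 0.511 times the young for H1, 0.453 for H2A, 0.471 for H2B, 0.286 for H3 and 0.543 for H4. Without young LT-HSC library 4 the H1 value was 0.775. H2B was the class whose 4 aged values (27.7 to 63.0 CPM) all lay below its 4 young values (67.4 to 177 CPM), and the other classes overlapped. In ST-HSC the aged mean was above the young in every class, from 1.46 times for H4 to 1.86 times for H1, and all classes overlapped. Among the 42 tested members, the lowest of the 6 group means was in aged LT-HSC for 41. The highest was in MPP for all 42, young for 16 and aged for 26. A mean of at least 1 CPM was reached by 29 tested members in LT-HSC of young and 19 in those of aged mice, by 30 and 33 in ST-HSC, and by all 42 in MPP of both ages. Some members passed the filter only through their level in MPP, which partly set these counts in advance. They describe the tested members only, and the share of all genes with this order was not taken.

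Linker histones were read mainly from Hist1h1b, Hist1h1d, Hist1h1c, Hist1h1a and Hist1h1e, which encode the somatic H1 proteins. Their sequences are distinct from each other, with at most 8.54% of 50-base runs shared. Hist1h1b (H1.5, chr13:21779883-21780625, minus strand) had the highest level per length of all members, 124 CPM per kilobase of annotated exon over the 24 libraries, against 33.5 for Hist1h1c. In CPM, Hist1h1b was at 10.9, 13.2, 16.6 and 64.6 in young LT-HSC libraries 1 to 4 and at 5.56, 0.203, 0 and 2.93 in aged LT-HSC. All 4 aged values lay below all 4 young values, and the young value of library 4 was far above the rest. ST-HSC held 56.9, 17.8, 15.9 and 59.5 CPM when young and 117, 60.7, 26 and 114 when aged, which overlap. MPP held 229.8, 97.0, 249.5 and 167 and 212, 192, 256 and 223, each higher than every LT-HSC value.

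Hist1h1d (H1.3) was at 9.96, 18.0, 31.8 and 77.8 CPM in young and 23.2, 11.6, 6.63 and 21.6 CPM in aged LT-HSC, which overlap. It was at 52.3, 23.1, 37.1 and 42.3 and 75.3, 69.2, 25.5 and 76.0 in young and aged ST-HSC and at 136, 63.8, 175 and 135 and 142, 138, 185 and 117 in MPP. Hist1h1c (H1.2, chr13:23738808-23740367), which is known to be expressed outside S phase as well, was at 20.6, 21.7, 40.8 and 58.1 in young and 31.1, 32.9, 23.6 and 31.5 in aged LT-HSC. These values overlap, and the aged mean of 29.8 ± 4.19 (SD, n = 4) stood close to the young mean of 35.3 ± 17.8. It was at 46.8, 24.2, 34.5 and 29.0 and 72.1, 62.5, 25.6 and 55.3 in ST-HSC and 82.4, 35.9, 95.9 and 79.3 and 88.4, 103, 87.4 and 70.6 in MPP. Hist1h1a (H1.1) had means of 15.2 ± 14.8 and 5.13 ± 3.97 CPM in young and aged LT-HSC and Hist1h1e (H1.4) of 19.7 ± 7.75 and 14.4 ± 4.22. Part of the Hist1h1e exon overlaps Hist1h2be and Gm11398 on the same strand, so their counts are uncertain.

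The make-up of H1 transcripts differed between the groups. Hist1h1b gave 18.4% ± 4.64 (SD, n = 4) of the H1 CPM in young LT-HSC and 2.70% ± 3.28 in aged LT-HSC, with no overlap of the libraries. It gave 24.1% ± 8.35 and 28.2% ± 6.57 in young and aged ST-HSC and 36.7% ± 1.98 and 36.8% ± 2.45 in MPP. The share of Hist1h1c went the other way, 29.6% ± 6.53 in young and 46.3% ± 9.55 in aged LT-HSC, again without overlap, and 14.5% ± 1.12 and 14.7% ± 2.69 in MPP. These shares are CPM not divided by length, and they carry no test.

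H2A members were low per gene, and Hist3h2a, Hist1h2ak and Hist1h2ab had the highest mean CPM of the class. Every H2A member overlaps an exon of a gene on the opposite strand in GENCODE. In the other classes only Hist1h4b, Hist2h3b and Hist2h2bb do. The libraries as described mark no strand, and how such reads were counted is not given. H2A counts are uncertain to that extent. Hist3h2a (chr11:58954685-58956830) was at 7.83, 8.43, 12.9 and 18.0 CPM in young and 10.2, 8.44, 4.85 and 11.1 CPM in aged LT-HSC, and at 23.8, 11.9, 41.4 and 21.7 and 31.4, 38.7, 29.2 and 30.3 in MPP. ST-HSC held 15.1, 6.55, 10.3 and 12.3 and 23.1, 27.5, 6.67 and 20.3. The ages overlapped in each population, and 708 bases of its exon are shared with Trim17 on the same strand. Hist1h2ak was at 1.19, 1.02, 2.81 and 8.90 in young and 1.33, 0.203, 0.128 and 0.732 in aged LT-HSC, where the highest aged value passes the lowest young ones. It was at 5.88, 2.18, 2.75 and 3.11 and 7.63, 4.54, 1.87 and 4.58 in ST-HSC and at 14.1, 11.6, 16.9 and 12.4 and 13.4, 14.6, 13.5 and 16.7 in MPP, all above every other group. Hist1h2ab was at 1.19, 1.28, 2.71 and 2.59 and 0.726, 0.203, 0.128 and 1.46 in young and aged LT-HSC, 4.38, 1.64, 0.474 and 3.36 and 4.53, 2.98, 0.934 and 3.36 in ST-HSC, and 11.8, 4.62, 15.0 and 12.8 and 11.3, 10.0, 11.2 and 10.2 in MPP. Hist1h2af was at 0, 0, 0.521 and 0.456 CPM in young LT-HSC, 11 counts in all, and had no count in aged LT-HSC. With 3 counts set over that group it was 3.21-fold lower in the aged, and it did not pass the test (adjusted p = 0.076). Such a value is called its bound below. It allows for counting error in the group without counts only, and not for error in the other group or spread between libraries.

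Among H2B members, Hist2h2bb, Hist1h2be and Hist1h2bb had the highest mean CPM. Hist1h2be, whose model of 4446 exon bases overlaps Hist1h1e, was at 11.3, 11.1, 22.1 and 29.1 CPM in young and 15.2, 14.0, 10.8 and 9.15 in aged LT-HSC, 23.9, 12.9, 13.5 and 16.7 and 22.3, 56.1, 10.7 and 21.4 in ST-HSC, and 57.9, 23.0, 56.0 and 48.8 and 45.7, 58.0, 50.9 and 39.6 in MPP. Hist2h2bb was at 7.71, 8.05, 15.5 and 27.6 and 6.05, 8.23, 5.99 and 8.78 in young and aged LT-HSC, 18.8, 3.71, 8.90 and 20.3 and 15.9, 38.0, 9.34 and 26.5 in ST-HSC, and 55.8, 26.4, 66.3 and 48.3 and 39.9, 48.8, 55.6 and 63.8 in MPP. Its exon overlaps Gm42743 on the same strand and Gm20628 on the opposite strand. Hist1h2bb was at 11.2, 7.02, 5.21 and 11.4 and 8.59, 1.52, 0.383 and 9.27 in LT-HSC, 14.1, 6.77, 2.08 and 12.7 and 13.4, 34.2, 6.27 and 20.8 in ST-HSC, and 45.8, 38.6, 48.4 and 37.5 and 38.3, 51.4, 55.3 and 28.8 in MPP. For these 3 the ages overlapped in LT-HSC.

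2 further H2B members, with a mean of at least 10 CPM and a call in the test of age below, separated the ages in LT-HSC. Hist2h2be, given below with the long models, did so too but was not called. The share of all genes that separated the ages was not taken. Hist1h2bj (chr13:22043214-22043676) was at 5.22, 6.77, 5.63 and 15.6 CPM in young and 3.99, 1.12, 0.383 and 2.93 CPM in aged LT-HSC, so every aged value was lower. Hist1h2bg (chr13:23571396-23572013) was at 8.07, 7.02, 10.5 and 12.9 and 1.21, 2.85, 0.510 and 3.05, again with every aged value lower. In ST-HSC Hist1h2bj held 11.4, 3.28, 3.03 and 10.3 when young and 15.6, 14.5, 2.94 and 11.7 when aged, and Hist1h2bg 10.8, 2.62, 11.6 and 6.47 and 9.53, 12.2, 2.14 and 7.12. In MPP the values were 39.2, 21.0, 40.9 and 37.5 and 28.6, 36.6, 40.3 and 32.6 for Hist1h2bj and 22.3, 12.3, 26.3 and 27.5 and 20.6, 26.1, 17.4 and 18.8 for Hist1h2bg. The ages overlapped in both of these populations. Hist1h2bn, Hist1h2bc and Hist1h2bm also reached a mean of 10 CPM, with 8.97 ± 5.52, 11.9 ± 5.47 and 6.14 ± 5.90 CPM in young against 2.76 ± 2.71, 7.48 ± 2.77 and 1.22 ± 1.54 CPM in aged LT-HSC.

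Counts on H3 members were few, and no tested one reached a mean of 5 CPM in any group. Hist1h3a was at 0.356, 0.894, 1.88 and 1.90 CPM in young and 0.121, 0, 0.255 and 0.366 in aged LT-HSC, 2.38, 1.20, 1.52 and 0.996 and 3.18, 3.11, 0 and 3.46 in ST-HSC, and 3.56, 1.32, 4.99 and 2.65 and 3.75, 2.31, 3.00 and 6.08 in MPP. Hist1h3f was at 0.119, 0.894, 1.15 and 1.14 and 1.21, 0.305, 0 and 0.610 in LT-HSC, 2.25, 0.874, 1.23 and 0.124 and 2.07, 4.54, 2.14 and 3.05 in ST-HSC, and 2.99, 1.58, 3.04 and 3.13 and 3.46, 3.11, 5.43 and 3.53 in MPP. Hist1h3c (chr13:23744973-23745602) was at 0.475, 0.511, 1.25 and 1.07 CPM in young LT-HSC and at 0, 0, 0 and 0.366 in aged LT-HSC, which is 3 counts in all against 34. It was at 1.25, 0.328, 0.379 and 0.996 and 2.22, 1.69, 0.801 and 1.32 in ST-HSC and 3.68, 2.64, 5.23 and 3.49 and 3.26, 3.64, 3.93 and 5.10 in MPP. Of the 12 H3 members 5 were tested, and these shared 24.8% to 73.4% of their 50-base runs with other members, so a low count does not show a low transcript level. Hist1h3d and Hist1h3e stayed at group means of at most 1.46 and 1.5 CPM. Values of 0 or near it lie under what a count of 0 allows in these libraries, so differences between the low libraries were not detectable at this depth.

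Among H4 members, Hist1h4d stood above the rest. It was at 14.9, 10.3, 17.2 and 24.1 CPM in young and 10.6, 11.7, 5.87 and 13.2 in aged LT-HSC, 22.0, 14.5, 15.5 and 12.0 and 25.3, 24.5, 11.7 and 28.2 in ST-HSC, and 45.7, 22.8, 51.6 and 40.8 and 42.4, 41.6, 46.3 and 57.8 in MPP. Hist4h4 (chr6:136801553-136804415), with no 50-base run in common with another member, was at 1.66, 1.53, 2.50 and 4.79 in young and 1.09, 0.915, 0.255 and 1.22 in aged LT-HSC, with every aged value lower. It was at 2.50, 2.73, 1.99 and 3.98 and 4.77, 5.32, 2.00 and 5.39 in ST-HSC and 7.01, 4.36, 8.64 and 7.11 and 8.99, 7.64, 11.2 and 9.02 in MPP. Hist1h4c was at 1.78, 0.894, 3.86 and 4.87 and 1.45, 1.73, 0.255 and 1.46 in LT-HSC, 3.50, 2.40, 3.41 and 1.74 and 4.61, 3.63, 1.60 and 4.17 in ST-HSC, and 7.35, 4.09, 7.55 and 8.07 and 8.99, 7.91, 6.18 and 10.0 in MPP. Hist1h4h, Hist1h4i, Hist1h4b and Hist2h4 were also tested, with means of 0.492 ± 0.254, 0.448 ± 0.513, 0.372 ± 0.301 and 1.49 ± 1.80 CPM in young and 0.253 ± 0.230, 0.182 ± 0.233, 0.142 ± 0.107 and 0.722 ± 0.342 CPM in aged LT-HSC.

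The test of age in LT-HSC asks which members changed between 12 and 107 weeks in the stem cell population. Of the 42 tested members, 11 fell and none rose. The median log2 change was -1.37 (the same with Hist1h2af at its bound), against 0.002 over all genes. An unadjusted p under 0.05 (share of all genes not given) stood in 22 members. Of all 14205 genes tested, 8.87% fell. All tests are quasi-likelihood tests of edgeR, adjusted after Benjamini and Hochberg over every gene tested, with a threshold of 0.05. The 11 belong to each class: Hist1h1b of H1, Hist1h2ak, Hist1h2ad, Hist1h2ac and Hist2h2ac of H2A, Hist1h2bg, Hist1h2bj and Hist1h2bk of H2B, Hist1h3c and Hist1h3a of H3, and Hist4h4 of H4. The filter used all 24 libraries, so some members were tested through their level in MPP, and 24 members passed the same filter on the 8 LT-HSC libraries alone. In a fit to those libraries 5 fell, a count given without the share of all genes in that fit. Among the 11, the share of 50-base runs found in other members was 0% for Hist1h1b and Hist4h4, and ran from 11.6% (Hist1h2ac) to 74.2% (Hist1h2bk) for the rest, whose counts are uncertain to that extent.

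Among the 11, Hist1h1b had a log2 change of -3.66 (SE 0.88, adjusted p = 0.0063). It was -3.61 for Hist1h2ad (SE 0.78, 0.0016), which was at 2.14, 0.894, 1.88 and 2.66 CPM in young and 0.121, 0.305, 0 and 0.122 CPM in aged LT-HSC. Hist1h3c had -3.06 (SE 0.80, 0.0079). It rests on 3 counts in the aged against 34 in the young, a ratio of 0.101 with an exact 95% interval of 0.0198 to 0.320 for counting error only. Hist1h2ac fell by 2.33 on the log2 scale (SE 0.50, 0.0015), from 1.19, 1.53, 3.13 and 3.50 CPM to 0.121, 0.813, 0.255 and 0.610 CPM, and Hist1h2bg fell by 2.32 (SE 0.51, 0.0024). In all 5 every aged library was below every young one. These 5 also passed the threshold in each of the 24 fits that left out 1 library, although Hist1h1b was at -4.74 without aged LT-HSC library 1. Only the fits that left out 1 of the 8 LT-HSC libraries changed the libraries compared here. Without aged LT-HSC library 4, Hist1h3c had no count in the aged. With 3 counts set over the remaining aged libraries it was 7.54-fold lower, which allows for counting error in the aged only. By limma-voom Hist1h1b had adjusted p = 0.11, and 0.074 in the fit to the LT-HSC libraries alone. Hist1h2ad and Hist1h3c did not pass the filter on those libraries, so they were not tested in that fit. Without young LT-HSC library 4, Hist1h1b was at -2.69 and still passed.

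The other 6 calls were lost without young LT-HSC library 4, the library with the highest histone sum of its group. Hist1h2ak was then at -1.52 in place of -2.58 (adjusted p = 0.068), Hist1h2bk at -1.95 in place of -2.53 (0.099) and Hist1h2bj at -1.5 in place of -2.0 (0.11). Hist1h3a was at -2.48 in place of -2.75 (0.075), Hist2h2ac at -1.68 in place of -1.99 (0.056) and Hist4h4 at -1.13 in place of -1.60 (0.083). Hist1h2bk was also lost without aged libraries 2 or 3 or young library 3, Hist1h2bj without aged libraries 2 or 3, and Hist1h3a without aged libraries 1 or 2 or young library 3. By limma-voom, 5 of the 6 did not pass: Hist1h2bj (adjusted p = 0.053), Hist4h4 (0.053), Hist2h2ac (0.060), Hist1h2bk (0.098) and Hist1h3a (0.17). In the fit to the LT-HSC libraries alone Hist4h4 had 0.053, and Hist1h2bk and Hist1h3a were not tested. Of these 6, the ages overlapped in Hist1h2ak, Hist1h2bk and Hist1h3a. Without young LT-HSC library 4 the median over members was -0.80 and 5 of 46 tested members fell. Without libraries 2 and 3 of aged ST-HSC and library 1 of young LT-HSC it was -1.74 and 21 of 48 fell. In the main fit 8.87% of all genes fell, and the shares in these fits are not given here.

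**Figure D3:**
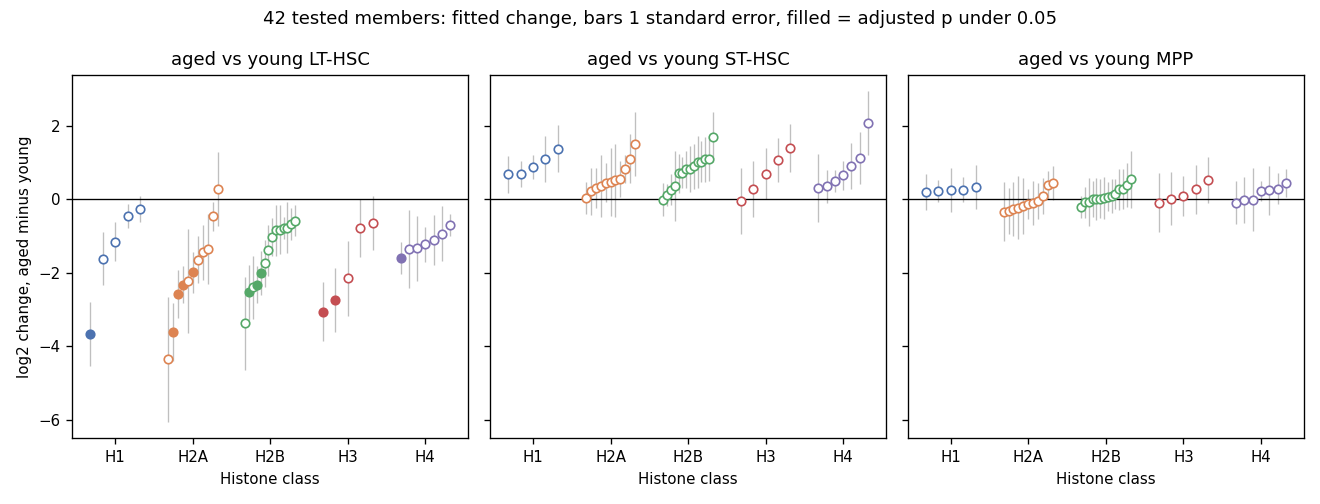
Fitted log2 change, aged minus young, of the 42 tested members by histone class in LT-HSC, ST-HSC and MPP, with bars of 1 standard error and filled points for an adjusted p under 0.05. In LT-HSC 11 points are filled and the median is -1.37, and in ST-HSC and MPP no point is filled. The lowest point of LT-HSC is Hist1h2af, which had no count in the aged, so its fitted value depends on the prior count.

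In ST-HSC no member passed the threshold for age, against 5.79% of all genes that changed in either direction. The median log2 change was 0.70, against 0.01 over all genes, with 40 of the 42 members above 0. An unadjusted p under 0.05 (share of all genes not given) stood in 6 members, all higher in the aged. These were Hist1h1e (0.88, adjusted p = 0.12), Hist1h2bl (1.69, 0.16), Hist1h4b (2.07, 0.17), Hist1h3f (1.38, 0.24), Hist1h1a (1.37, 0.25) and Hist3h2a (0.82, 0.25). DESeq2 called 1 member, Hist1h1e, higher in aged ST-HSC (adjusted p = 0.038). A fit to the ST-HSC libraries alone also called 1, Hist1h2bl (0.044), and limma-voom called none. In MPP none passed either, with a median of 0.07 and none at an unadjusted p under 0.05, against 9.79% of all genes changed. DESeq2 and limma-voom called no member in MPP.

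Whether the age change itself differed between populations was tested as a difference of age effects. It was lower in LT-HSC than in ST-HSC for 7 members (median of the 42 differences -2.28; 2.39% of all genes), and lower in LT-HSC than in MPP for 8 members (median -1.46; 4.89% of all genes). ST-HSC and MPP differed in no member (median 0.62; 0.465% of all genes in either direction), with none at an unadjusted p under 0.05 and none by DESeq2 or limma-voom. With Hist1h2af at its bound the median was -2.22 for LT-HSC against ST-HSC and -1.43 for LT-HSC against MPP. Against ST-HSC the differences were -4.76 for Hist1h1b, -4.11 for Hist1h3c, -3.82 for Hist1h2ad, -3.42 for Hist1h2bk, -3.03 for Hist1h2ak, -2.36 for Hist1h2ac and -2.25 for Hist4h4. Of these, Hist1h1b (adjusted p = 0.018) and Hist1h3c (0.018) passed in each of 24 fits without 1 library. The number of passing fits was 21 for Hist4h4, 17 for Hist1h2ad, 14 for Hist1h2ac, 12 for Hist1h2ak and 5 for Hist1h2bk. Fits that left out a library of the population not compared count among the 24, here and against MPP. Against MPP the differences were -3.91 for Hist1h1b, -3.51 for Hist1h2ad, -3.14 for Hist1h3c, -2.66 for Hist1h2ak, -2.43 for Hist2h2ac, -2.23 for Hist1h2bg, -2.20 for Hist1h2ac and -2.04 for Hist4h4. None of these passed in every fit without 1 library, and the number of passing fits ran from 13 of 24 for Hist1h3c to 22 for Hist1h2ad and Hist4h4.

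The counts behind these differences, given without the share of all genes in each fit, moved with single libraries. Between LT-HSC and ST-HSC, 7 members became 2 without aged LT-HSC library 3 or young LT-HSC library 4, 3 without aged ST-HSC library 1, young LT-HSC library 3 or young ST-HSC libraries 2 or 3, 4 without aged ST-HSC libraries 2 or 4, and 17 without aged ST-HSC library 3. Between LT-HSC and MPP, 8 members became 1 without aged LT-HSC library 3, young LT-HSC library 4 or young MPP library 2. They became 4 without aged LT-HSC library 2, aged MPP library 2, young LT-HSC library 3 or young MPP library 1, and 5 without aged LT-HSC library 1, aged MPP library 4 or young MPP library 4. The median difference stayed below 0 in each of these fits, from -2.64 to -1.80 against ST-HSC and from -1.77 to -0.86 against MPP. Without libraries 2 and 3 of aged ST-HSC and library 1 of young LT-HSC, 16 of 48 members passed against ST-HSC and 12 against MPP. Both differences share the LT-HSC libraries.

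Between populations, MPP had higher histone transcripts than either stem cell population. In young mice, 30 of 42 members were lower in ST-HSC than in MPP (median -1.89; 10.1% of all genes) and 28 were lower in LT-HSC than in MPP (median -1.77; 18.3%). LT-HSC and ST-HSC differed in no member when young (median 0.11; 12.5% of all genes in either direction), with none at an unadjusted p under 0.05 and none by DESeq2 or limma-voom. In aged mice 31 members were lower in LT-HSC than in ST-HSC (median -2.15; 16.1%), 11 were lower in ST-HSC than in MPP (median -1.20; 14.4%) and 41 were lower in LT-HSC than in MPP (median -3.36; 28.5%). No member was higher in the first named population of any comparison. Comparisons that share a population share its libraries, and a member that passed the filter only through its level in MPP had to differ, so these counts describe the tested members only.

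The class medians of aged LT-HSC against MPP were -3.21 for H1, -3.49 for H2A, -3.43 for H2B, -3.10 for H3 and -2.73 for H4, and those of young LT-HSC against MPP -1.87, -1.93, -1.99, -1.29 and -1.34. The member of smallest p of each class is named next, and such a choice tends to take large differences. Between young LT-HSC and MPP the log2 differences were -2.78 for Hist1h1b (adjusted p = 0.0023), -2.48 for Hist1h2ab (0.00071), -2.53 for Hist1h2bh (0.0021), -2.15 for Hist1h3c (0.0049) and -1.26 for Hist1h4d (0.0013). Between aged LT-HSC and MPP they were -6.69 for Hist1h1b (2.6e-06), -5.29 for Hist1h3c (1.6e-06), -5.07 for Hist1h2bk (3.3e-06), -4.59 for Hist1h2ak (1.7e-06) and -3.38 for Hist4h4 (2.3e-07). In all 5 of the aged every LT-HSC value lay below every MPP value. Without aged LT-HSC library 4, the only one of the 4 with a count of it, Hist1h3c was set to 3 counts. It was then 34.4-fold lower than in MPP, which allows for counting error in aged LT-HSC only.

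The remaining comparisons set ST-HSC beside the other populations. Between young ST-HSC and MPP the log2 differences were -1.39 for Hist1h1e, -2.18 for Hist1h2ab, -2.32 for Hist1h2bj, -2.35 for Hist1h3c and -1.33 for Hist1h4d, with adjusted p from 0.0021 to 0.0060. Between aged LT-HSC and ST-HSC they were -5.22 for Hist1h1b, -2.97 for Hist1h2ak, -3.15 for Hist1h2bk, -3.91 for Hist1h3c and -2.31 for Hist4h4, with adjusted p from 0.00011 to 0.0021. Without aged LT-HSC library 4 and with 3 counts set in aged LT-HSC, Hist1h3c was 13.8-fold lower there, which allows for counting error in aged LT-HSC only. The class medians of that comparison ran from -2.44 (H3) to -1.67 (H4), and those of young ST-HSC against MPP from -2.19 (H2B) to -1.25 (H3). Between aged ST-HSC and MPP, Hist1h2ab (-1.83), Hist1h2bk (-1.92) and Hist1h4d (-1.06) passed, and Hist1h1d (-1.24, adjusted p = 0.071) and Hist1h3c (-1.38, 0.064) did not. Between young LT-HSC and ST-HSC, the members of smallest p were Hist1h1b (-0.46), Hist1h2an (-1.23), Hist2h2be (0.21), Hist1h3f (-0.41) and Hist1h4b (1.37), with adjusted p of 0.39 to 0.80.

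The counts of members between ST-HSC and MPP, given without the share of all genes in each fit, moved with the libraries used. In the young, 30 became 16 without young ST-HSC library 2 or library 3, 17 without young MPP library 3 and 19 without young MPP library 4. In the aged, 11 became 3 without aged ST-HSC library 3, 6 without aged MPP library 2 and 7 without aged MPP library 4. Without libraries 2 and 3 of aged ST-HSC and library 1 of young LT-HSC, 1 of 48 members passed there, with a median of -0.91, and Hist1h2ab, Hist1h2bk and Hist1h4d had adjusted p = 0.11, 0.12 and 0.090.

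Members with long annotated models had smaller median differences than short ones. The exon length of the 42 tested members ran from the coding sequence alone to several kilobases, with 14 models over 1000 bases and 28 of 1000 bases or less. The median log2 difference of aged LT-HSC from MPP was -2.51 in the long and -3.68 in the short, and of young LT-HSC from MPP -1.26 and -1.96. The median age change in LT-HSC was -0.74 and -1.69. With Hist1h2af at its bound the short members had -3.56 and -1.66. Spearman's rho of length with these 3 values over the 42 members was 0.43, 0.51 and 0.30, a description over genes that share libraries. The share of 50-base runs found in other members had a rho of -0.37, -0.34 and -0.25, and the mean CPM of 0.17, 0.02 and 0.28. Hist2h2be, with a single exon of 2620 bases and no run shared, changed least, with log2 differences of LT-HSC from MPP of -0.18 in the young and -0.76 in the aged. It was at 11.6, 8.81, 7.92 and 9.59 CPM in young LT-HSC, 4.84, 7.42, 2.93 and 6.59 in aged LT-HSC, 8.04, 9.24, 13.6 and 12.0 in young MPP and 7.70, 14.1, 8.90 and 6.37 in aged MPP. LT-HSC and MPP overlapped at both ages, while every aged LT-HSC value was below every young one (log2 change -0.79, adjusted p = 0.066). It was picked for this after its values were seen.

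**Figure D4:**
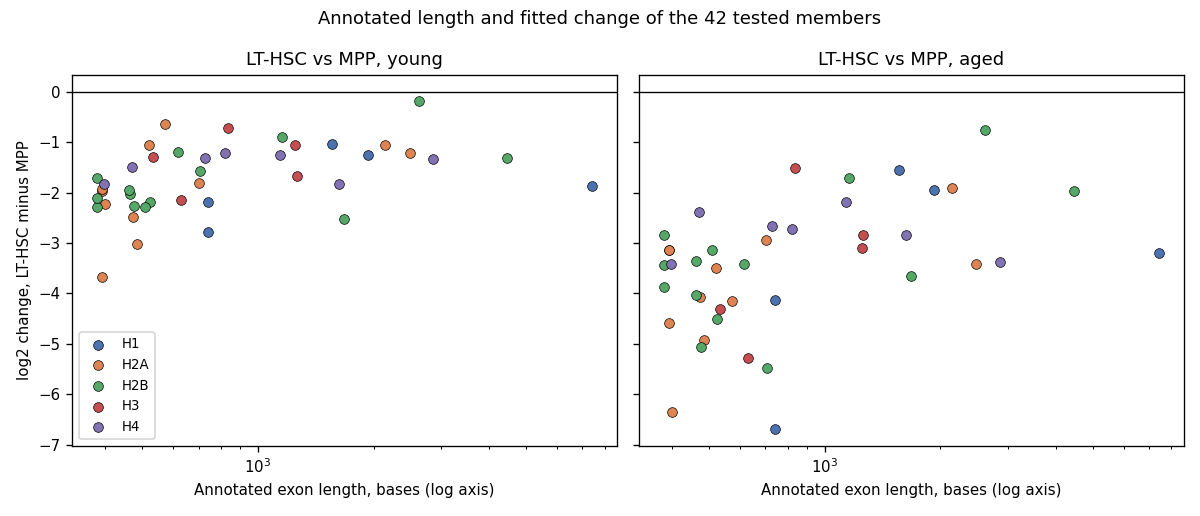
Fitted log2 change of LT-HSC from MPP in young and aged mice against annotated exon length in bases (log axis) for the 42 tested members, coloured by class. In the aged panel the 14 members over 1000 bases have a median of -2.51 and the 28 shorter ones a median of -3.68.

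H2A and H2B genes often stand head to head and share the DNA between their starts. 14 such pairs were found among the members, 13 of an H2A and an H2B gene with 173 to 306 bases between the starts, and Hist1h2bh with Hist1h3f at 660 bases. Both genes were tested in 9 pairs. Their age changes in LT-HSC (log2) were -2.23 and -2.0 for Hist1h2ag and Hist1h2bj, -2.58 and -1.74 for Hist1h2ak and Hist1h2bn, and -1.44 and -2.32 for Hist1h2ae and Hist1h2bg. Wider gaps stood between Hist1h2ac (-2.33) and Hist1h2bc (-0.67), Hist1h2ad (-3.61) and Hist1h2bf (-1.40), and Hist1h2an (0.27) and Hist1h2bp (-3.37). Hist2h2ac and Hist2h2be had -1.99 and -0.79, and -3.49 and -0.76 for aged LT-HSC against MPP. The other pairs had -0.77 and -1.35 (Hist1h2bl and Hist1h2ai) and -0.85 and -0.65 (Hist1h2bh and Hist1h3f). Hist1h2ag and Hist1h2bp had 1 count each in aged LT-HSC, against 8 and 19 in the young, ratios of 0.143 (exact 95% interval 0.00322 to 1.06) and 0.0601 (0.00145 to 0.378). Differences within a pair were not tested.

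Promoters are shown for 1 member of each class, because the sums of all classes were lowest in aged LT-HSC while the promoters of the classes hold different motifs. Each is the 150 bases before the RefSeq start on the gene's strand (GRCm38.p6), with matches to the motifs named below in capitals. RefSeq and GENCODE starts differ for Hist1h2ab, Hist1h3c and Hist4h4. Part of the Hist1h3c stretch lies inside its GENCODE model (chr13:23744973-23745602).
Hist1h1b (chr13:21780626-21780775, minus strand): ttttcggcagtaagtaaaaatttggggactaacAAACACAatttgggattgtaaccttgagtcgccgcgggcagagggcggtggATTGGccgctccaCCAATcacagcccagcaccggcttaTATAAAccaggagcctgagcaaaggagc
Hist1h2ab (chr13:23750938-23751087, plus strand): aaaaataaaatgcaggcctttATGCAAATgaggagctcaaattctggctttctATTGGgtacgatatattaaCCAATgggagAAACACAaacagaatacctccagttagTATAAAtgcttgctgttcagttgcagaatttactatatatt
Hist1h2bb (chr13:23746584-23746733, plus strand): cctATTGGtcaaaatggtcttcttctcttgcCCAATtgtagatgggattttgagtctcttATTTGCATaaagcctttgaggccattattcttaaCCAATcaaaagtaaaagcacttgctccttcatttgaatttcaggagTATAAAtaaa
Hist1h3c (chr13:23745522-23745671, minus strand): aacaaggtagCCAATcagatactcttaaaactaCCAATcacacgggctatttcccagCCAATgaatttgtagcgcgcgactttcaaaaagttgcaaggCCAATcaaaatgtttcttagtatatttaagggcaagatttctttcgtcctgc
Hist4h4 (chr6:136804432-136804581, minus strand): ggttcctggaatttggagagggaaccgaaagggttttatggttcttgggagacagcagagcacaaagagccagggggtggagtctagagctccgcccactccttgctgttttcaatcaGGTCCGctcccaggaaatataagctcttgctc
RefSeq held a promoter for 61 of the 68 members, and windows of 300 bases (250 before the start and 50 after it) were searched on both strands and set beside all 32851 promoters of the table. The CCAAT box, bound by the factor NF-Y, stood in all promoters of H1 (6), H2A (17), H2B (16) and H3 (10) and in 3 of 12 of H4, against 37.4% of all promoters. TATAAA stood in 57.4% of members and 13.6% of all. The octamer ATTTGCAT, bound by the POU factor Oct1 (Pou2f1), stood in 7 of 17 H2A and 6 of 16 H2B promoters and in none of the other classes, against 1.74% of all. The motif AAACACA stood in 5 of 6 H1 promoters, 2 of H2A and 2 of H2B (7.18% of all), and GGTCCG in 11 of 12 H4 promoters, 1 of H2B and 1 of H3 (8.25% of all). A match is a run of letters and not a site shown to be bound.

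Other genes of the histone pathway also differed by age in LT-HSC. Of 20 genes of histone message processing and transcription, 8 fell and 1 rose (median -0.27), where 8.87% of all genes fell and 9.98% rose. Slbp, which encodes the stem-loop binding protein, fell from 63.7 to 28.0 CPM (log2 change -1.19, adjusted p = 0.00025), and E2f1, a transcription factor of S phase entry, from 37.4 to 10.7 CPM (-1.81). Srrt changed by -0.46, and Pou2f1, whose protein binds the octamer, rose by 0.65. Of 26 histone chaperone and assembly genes 9 fell and none rose (median -0.20), among them Chaf1a, a subunit of the CAF-1 complex that lays new histones on copied DNA (-1.39), Tonsl (-1.49) and its partner Mms22l (-0.95), and Dnajc9 (-0.80). Of 11 tested genes of histone variants made outside S phase, 3 fell (median of the 11 -0.35; H1fx -1.41, H2afy -0.35 and H2afv -0.43) and the linker histone H1f0 rose (0.65).

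In ST-HSC, 1 gene of these 3 lists changed, the importin gene Ipo4 (-0.46), where 5.79% of all genes changed in either direction. In MPP 1 changed, the histone chaperone gene Npm1 (0.32), where 9.79% of all genes did. The processing genes of highest level, Sympk and Upf1, had log2 changes of -0.12 and -0.01 in ST-HSC and -0.14 and -0.03 in MPP. Of the variants, H2afy and H3f3b had -0.06 and 0.09 in ST-HSC and 0.13 and 0.22 in MPP. The lists were chosen with earlier results of these data known, and their counts describe them.

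S phase genes give the setting of these levels. Of 36 such genes 33 fell in aged LT-HSC (median -1.35), among them the helicase genes Mcm2 (-1.74) and Mcm3 (-1.34), the repair gene Ung (-2.38) and the clamp loader gene Rfc2 (-0.81). In ST-HSC 1 rose (Rfc2, 0.37, with a list median of 0.06) and in MPP none passed (median -0.11). Of all genes, 5.79% changed in ST-HSC and 9.79% in MPP, in either direction. Of 25 genes of G2 and mitosis, 1 fell in aged LT-HSC (Ndc80, -1.28), a smaller share than over all genes, while all 25 had log2 changes below 0 (median -0.81). In ST-HSC 24 of the 25 were above 0 (median 0.64) and in MPP 3 (median -0.15). None passed in ST-HSC or MPP, where Mki67 had 0.89 (adjusted p = 0.15) and -0.02. The S phase genes summed to 2572, 3872, 3966 and 3601 CPM in young and 1486, 1092, 1356 and 1396 CPM in aged LT-HSC, with no overlap. Young and aged ST-HSC had 3187 ± 739 and 3274 ± 636 CPM (SD, n = 4), and MPP 6328 ± 193 and 5853 ± 686.

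Histone sums did not follow the S phase sums in every library. Histone CPM as a percentage of S phase CPM was 6.46, 4.72, 7.47 and 15.0% in young LT-HSC libraries 1 to 4 and 11.8, 12.9, 6.18 and 13.0% in aged LT-HSC, so the ages overlapped. It was 10.4, 6.38, 10.7 and 10.1% and 17.5, 20.0, 8.40 and 15.2% in young and aged ST-HSC and 19.1, 8.39, 21.0 and 15.6% and 17.6, 21.5, 18.7 and 20.4% in MPP. Young LT-HSC library 4 had the highest value of the 8 LT-HSC libraries, with an S phase sum within the range of its group. Young MPP library 2 had the highest S phase sum of the young MPP and the lowest histone sum. Aged ST-HSC library 3 was the lowest of its group in histones, S phase and G2 and mitosis alike.

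**Figure D5:**
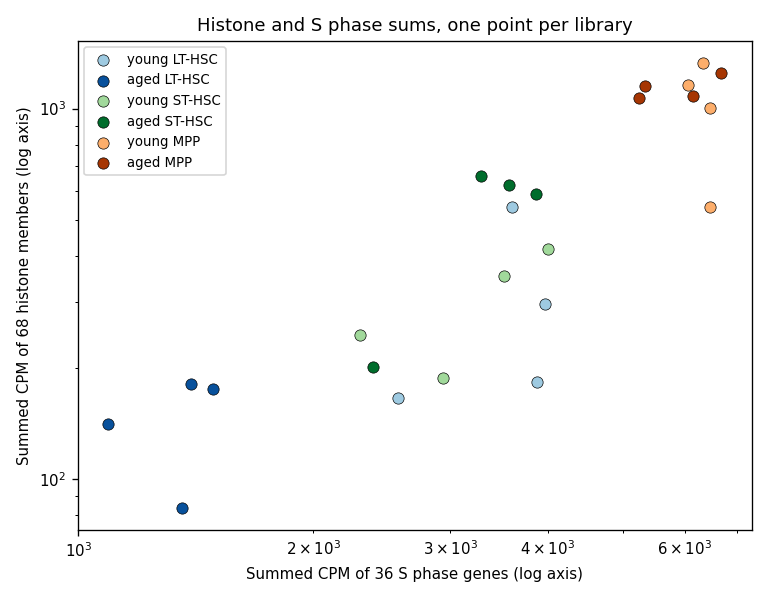
Summed CPM of the 68 histone members against summed CPM of 36 S phase genes, both on log axes, with one point per library coloured by group. The 4 aged LT-HSC libraries lie at the lower left, at 1092 to 1486 CPM of S phase genes, and MPP at the upper right.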

How the data were processed

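Transcripts of 24 libraries were measured by bulk RNA-seq. Sorted cells were reverse transcribed from not-so-random primers, Klenow fragment made the second strand, and a Nextera XT kit made the libraries, per the labels' protocols. As described, this marks no strand and adds no molecular identifiers. The tools named in the submitters' processing notes are Trim Galore, HISAT2 and featureCounts, with build mm10. Versions, annotation, strand setting and the handling of reads that fit several genes were not given in the sources used here. Raw counts per gene symbol were deposited by the authors in one table, and no normalization was found in the values.

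Genes passing filterByExpr (14205 of 24421) were fitted over all 24 libraries with edgeR 4.0.16 in R 4.3.3, with TMM factors, one mean per group and robust quasi-likelihood dispersion, which left 18 residual degrees of freedom (biological coefficient of variation 0.213). Tests are two-sided in 12 contrasts, with Benjamini-Hochberg adjustment over all tested genes. Levels are CPM (TMM factors included) with SD over the 4 libraries of a group, and library totals of 7307151 to 12946550 counts set their precision. The fit was also run on simulated counts with known changes, and the outcome of that run is not given here. Members and lists were chosen with earlier results of these data known. Named with values are members with a mean of at least 10 CPM, members called in an age comparison or difference of age effects, and the member of smallest p per class in each population comparison. Alternatives were other scaling, filters, DESeq2 1.42.0, limma-voom (limma 3.58.1), replicate blocks and left-out libraries. Transcripts are from GENCODE vM21 and promoters from RefSeq (GRCm38.p6). Protein sequences were not used here.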

Additional observations from a re-analysis of the deposited data

Results flagged for a closer look

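Single libraries stood apart from the other 3 of their group by Dixon's test at the 95% level in 10 of 138 group values of class sums and named members, where chance gives about 1 in 20. In aged ST-HSC library 3 the sum of all members was 200.6 CPM, the H4 sum 17.5 CPM, Hist1h1d 25.5 CPM and Hist1h3a 0 CPM, each the lowest of its group. In young LT-HSC library 4, Hist1h1b was at 64.6 CPM and Hist1h2bj at 15.6 CPM, each the highest of its group. In aged LT-HSC library 4, Hist1h3c was at 0.366 CPM and at 0 in the other 3. These are 3 counts, no more than a count of 0 allows, so that difference was not detectable at this depth. Hist1h3f was at 1.58 CPM in young MPP library 2, the lowest of its group. The H3 sum was 9.13 CPM in young ST-HSC library 1 and the H2A sum 98.1 CPM in aged MPP library 2, both the highest of their groups.

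The age change differed between populations by the interaction test (edgeR, adjusted p under 0.05) for 15 member values. LT-HSC against ST-HSC gave -4.76 for Hist1h1b, -4.11 for Hist1h3c, -3.82 for Hist1h2ad, -3.42 for Hist1h2bk, -3.03 for Hist1h2ak, -2.36 for Hist1h2ac and -2.25 for Hist4h4. LT-HSC against MPP gave -3.91 for Hist1h1b, -3.51 for Hist1h2ad, -3.14 for Hist1h3c, -2.66 for Hist1h2ak, -2.43 for Hist2h2ac, -2.23 for Hist1h2bg, -2.20 for Hist1h2ac and -2.04 for Hist4h4.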

How the results depend on the processing

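Of 1782 alternative values of 49 single-member changes, 1636 kept their direction and side of the threshold, 146 kept the direction and lost the call, and 0 reversed. Many of these values come from fits that left out a library outside the groups compared, which raises the number kept. Of 210 alternative values of class sum ratios, 4 in MPP changed sign. 1 moved by over 1.5 times (H1 in LT-HSC, 0.511 to 0.775 without young library 4). None moved by over 1 SD, taken between libraries on the log2 sums and pooled over the groups compared. Most alternatives left out 1 library of 4, which seldom shifts a group mean by 1 SD. That count of 0 was thus nearly fixed in advance. Counts of called members, given without the share of all genes in the same fit, moved by over 1.5 times as follows. For aged against young LT-HSC, 11 became 5 by limma-voom, 5 with only the groups compared, 21 without libraries 2 and 3 of aged ST-HSC and library 1 of young LT-HSC, and 5 to 14 with 1 library left out. For aged against young ST-HSC, 0 became 1 by DESeq2 and 1 with only the groups compared. For young ST-HSC against MPP, 30 became 16 to 32 with 1 library left out. For aged ST-HSC against MPP, 11 became 25 by limma-voom, 1 without those 3 libraries and 3 to 15 with 1 left out. For the difference of age effects between LT-HSC and ST-HSC, 7 became 15 by DESeq2, 1 by limma-voom, 4 with no count filter, 12 with no robust estimation, 16 without those 3 libraries and 2 to 17 with 1 left out. Between LT-HSC and MPP, 8 became 4 by limma-voom and 1 to 10 with 1 left out. The cause was not tested, except that a fit to only the groups compared tested fewer members. Counting depth limits members with few counts in aged LT-HSC, among them Hist1h2af (0), Hist1h2ag and Hist1h2bp (1 each) and Hist1h3c (3).

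The labels do not say that equal replicate numbers mark a shared source, and the numbers were not taken to pair the samples. Deviations of same-numbered libraries of one age had a mean correlation of 0.040 (-0.041 to 0.130), with 4 of 24 pairs over 0.1, against -0.013 and 4 of 72 for different numbers. A library correlated best with its own number in 19 of 48 cases. With 4 libraries to pick from each time, this is above the chance rate. With the replicate number as a block (shares of all genes not given), 12 members fell in aged LT-HSC in place of 11. In that fit 12 were lower in aged ST-HSC than in MPP in place of 11. With a replicate block within age that count was 19. The difference of age effects between LT-HSC and ST-HSC then gave 6, which held 4 of the 7 (not Hist1h2ac, Hist1h2ak or Hist1h2bk), and that between LT-HSC and MPP 7 of the 8 (not Hist1h3c).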
